A study of Mus musculus with 8 samples.

Results

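The interleukin-1 family and inflammasome genes described here are Il1a, Il1b, Il1rn, Il1r1, Il1r2, Il1rap, Il18, Il33, Casp1 and Nlrp3. They were taken by name from a table of read counts over 54532 mouse genes, and all 10 were found. The 10 genes were chosen by their place in the interleukin-1 pathway with their saline and mAb-DXd/IMQ values already known. Their difference between those groups is therefore a description, and no test of it is given.

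The tumors were grown from 4T1-FLuc, a mouse triple-negative breast cancer (TNBC) line that carries luciferase, placed under the skin of 6-week-old female BALB/cJ mice, whose immune system is intact. One group, named saline in the sample titles and PBS control in the treatment label, received no conjugate. The other received mAb-DXd/IMQ, labelled HumCD276-Dxd/IMQ, an antibody against CD276 that carries DXd, a topoisomerase inhibitor, and IMQ, an imidazoquinoline that activates Toll-like receptors. It was given at 16 mg/kg into the tail vein every 4 days for 5 courses. Tumors were taken at the end of the study, poly-A RNA was sequenced, and 4 tumors per group were counted. The paper reports a far smaller mean tumor volume at the end with mAb-DXd/IMQ than with saline. The part of tumor size in the values below was not tested. A bulk tumor sample holds the cancer cells together with every host cell in it. Saline libraries held 45019927 to 69582375 counted reads, and mAb-DXd/IMQ libraries held 34591912 to 51625237. The ranges overlapped (exact permutation test, two-sided, p = 0.171). The lowest count of any member in any tumor was 244, against a floor of 3 counts, which equals 0.0439 to 0.0843 CPM (counts scaled to library size) and covers counting error only.

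Interleukin-1 alpha and beta, encoded by Il1a and Il1b, are inflammatory cytokines that bind the receptor IL1R1, which needs the accessory chain IL1RAP to signal to NF-kB. The antagonist encoded by Il1rn blocks that receptor, and IL1R2 is a decoy that binds the cytokine without signalling. Interleukin-1 beta and interleukin-18 are made as precursors and cut by caspase-1, which is activated on an inflammasome such as the one built by NLRP3, so the RNA level of a cytokine gene does not give the amount of active protein.

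Il1b was lower in mAb-DXd/IMQ tumors, and the other members lay in overlapping ranges. Of the 10 members, 9 had a lower mean in mAb-DXd/IMQ tumors and 1, Il33, had a higher one. Their median log2 fold change, mAb-DXd/IMQ minus saline, was -0.19, beside 0.02 over the 18511 genes that passed the filter on low counts, which all 10 members passed. With other scalings of the libraries the number of lower members was 9, 8 or 7, as Il1rn changed sign when scaled by library size alone and Il1rn and Il18 did with upper-quartile factors. Thresholds were an adjusted p under 0.05 by edgeR's quasi-likelihood test and an absolute log2 fold change above 0.58. Over all tested genes 197 were past them, or 1.06%, with 0.546% higher and 0.519% lower in mAb-DXd/IMQ tumors. When libraries were scaled by size alone or by upper quartiles, 60.8% and 66.5% of the genes past the thresholds were higher, against 51.3% with TMM factors. Leaving out 1 tumor lowered the number of genes past the thresholds to 111, 10 and 11 without saline replicates 2, 3 and 4, and to 76, 88 and 12 without mAb-DXd/IMQ replicates 2, 3 and 4. Calls on the members are not given, and nothing is read from these shares for them, because the members were chosen with this contrast known. Il1b was the 1 member whose groups did not overlap, where 7.1% of tested genes were lower and 5.97% higher without overlap.

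**Figure D1:**
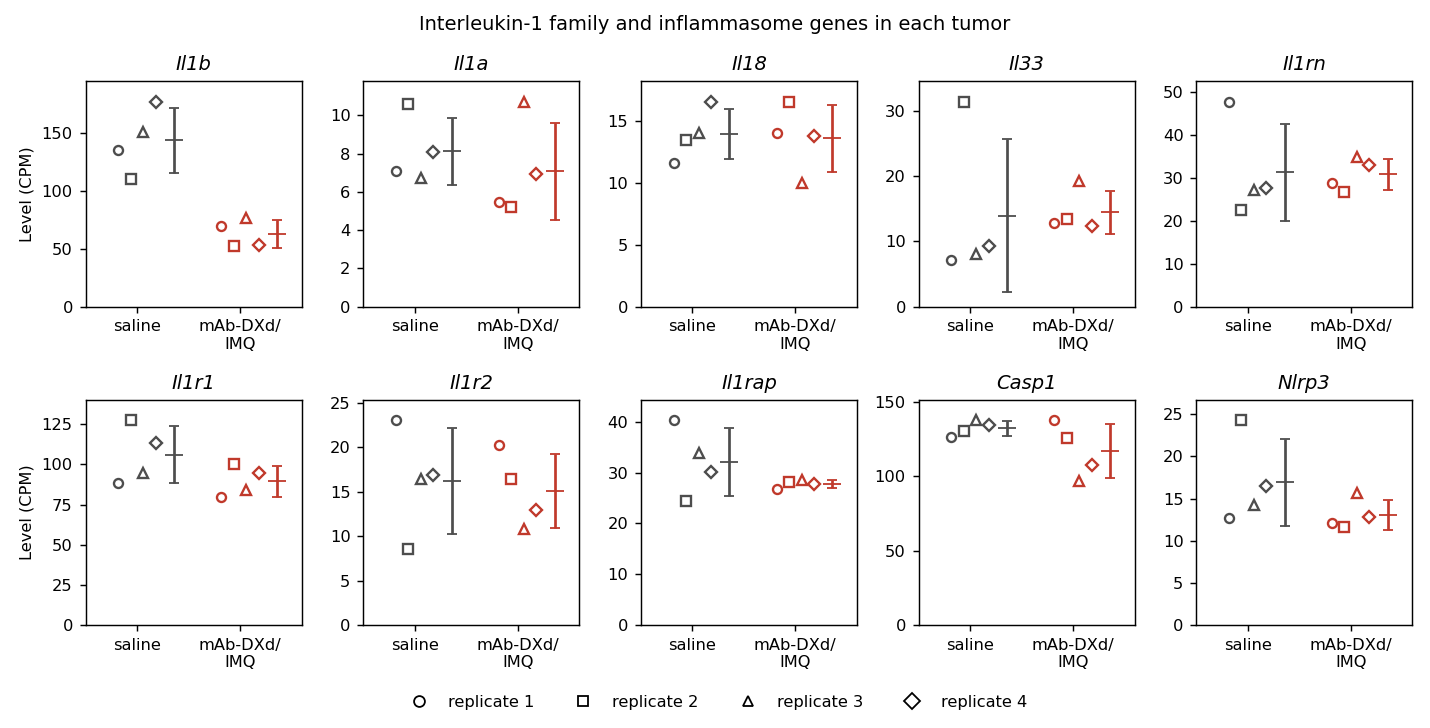
Levels of the 10 members in CPM (vertical axes, from 0) in each of 4 saline tumors (grey) and 4 mAb-DXd/IMQ tumors (red), with the mean and SD beside the points and the marker shape giving the replicate. The Il1b values of the groups are apart, with 110 CPM as the lowest saline value and 76.4 CPM as the highest mAb-DXd/IMQ value, and the other 9 panels overlap.

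Il1b, the gene of interleukin-1 beta, stood at 135, 110, 151 and 177 CPM in saline replicates 1 to 4. In mAb-DXd/IMQ replicates 1 to 4 it stood at 69.3, 52.2, 76.4 and 52.8 CPM. Every saline tumor was above every mAb-DXd/IMQ tumor, with saline replicate 4 the highest and mAb-DXd/IMQ replicate 2 the lowest. The means were 143 ± 28.0 CPM and 62.7 ± 12.1 CPM (SD, n = 4 each), a log2 fold change of -1.19 with an approximate standard error (SE) of 0.17. The difference remained between -1.30 and -1.07 when each tumor was left out in turn. An antisense gene, Il1bos, overlaps Il1b at a mean of 0.712 CPM, and whether reads were counted by strand is not given in the sources used here. Bulk RNA cannot tell fewer cells that express Il1b from less Il1b RNA per cell.

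Il1a, which encodes interleukin-1 alpha, lies beside Il1b on chromosome 2, with 54598 bases between the genes as the table places them. Gm14023, on the opposite strand at a mean of 0.632 CPM, overlaps Il1a. Il1a stood at 7.08, 10.6, 6.72 and 8.06 CPM in saline replicates 1 to 4. The values in mAb-DXd/IMQ replicates 1 to 4 were 5.47, 5.22, 10.7 and 6.91 CPM. The groups overlapped, and the highest tumor of all was mAb-DXd/IMQ replicate 3. The log2 fold change was -0.20 (SE 0.26), with means of 8.12 ± 1.76 CPM and 7.08 ± 2.54 CPM (SD, n = 4 each). It lay between -0.47 without mAb-DXd/IMQ replicate 3 and -0.04 without saline replicate 2.

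The promoters of this gene pair are shown because the genes are neighbours on the same strand and 1 of them differed between the groups without overlap. Both windows are from RefSeq (build GRCm38.p6, minus strand), 250 bases before to 50 after the start, at chr2:129371090-129371389 for Il1b and chr2:129309923-129310222 for Il1a. Capitals mark letters found by a search of both strands for 5 short motifs. The TATA box was searched as TATAAA. C/EBP factors were searched as TTNNGNAA, where N is any base, and NF-kB as GGAANTTCC. AP-1 was searched as TGANTCA, a site of the FOS and JUN factors. PU.1, a factor of myeloid cells, was searched as GAGGAA. The motifs were chosen with both sequences in view, and the NF-kB form was replaced once, so the matches are not tested.
Il1b: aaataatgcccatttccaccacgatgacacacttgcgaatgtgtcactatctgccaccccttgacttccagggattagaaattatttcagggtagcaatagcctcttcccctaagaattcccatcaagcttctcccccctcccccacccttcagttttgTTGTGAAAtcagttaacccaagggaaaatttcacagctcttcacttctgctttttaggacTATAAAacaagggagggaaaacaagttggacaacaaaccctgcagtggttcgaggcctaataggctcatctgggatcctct
Il1a: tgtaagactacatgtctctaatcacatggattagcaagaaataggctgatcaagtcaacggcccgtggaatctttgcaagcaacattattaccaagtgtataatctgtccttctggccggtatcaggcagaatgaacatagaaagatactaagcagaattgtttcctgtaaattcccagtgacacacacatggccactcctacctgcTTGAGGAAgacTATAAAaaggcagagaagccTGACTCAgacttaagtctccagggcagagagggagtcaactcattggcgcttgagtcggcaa
Both windows held the TATA box letters, at bases -31 to -26 from the Il1b start and -32 to -27 from the Il1a start, and 13.6% of the 32851 windows in the table held them. Both also held the C/EBP letters, found in 40.7% of windows. The AP-1 letters, in 7.81% of windows, were in the Il1a window and not in that of Il1b. The PU.1 letters, in 28.3% of windows, were likewise in the Il1a window, where they overlap the C/EBP match. The NF-kB letters, in this narrow form found in 0.928% of windows, had no match in either. GC content was 45.7% for Il1b and 44.7% for Il1a, beside a median of 52.7% over all windows. All 10 members had an entry, with 15 windows in all, and the TATA box letters were in those of 5 members, Il1a, Il1b, Il1rn, Il18 and Il33. For Il18 (-175 to -170) and Il1rn (14 to 19, after the start) they were on the opposite strand. Il33 held them at -203 to -198 in 1 window and at -29 to -24 in another. A match of letters is a description and does not show that a factor binds there.

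Il18 encodes interleukin-18, a cytokine that acts with interleukin-12 on T cells and natural killer cells. It ranged from 11.6 to 16.5 CPM with saline and from 10.03 to 16.6 CPM with mAb-DXd/IMQ, so the groups covered nearly the same range. Its log2 fold change was -0.03 (SE 0.18), and the sign changed with upper-quartile factors, to 0.01. With 1 tumor left out it lay between -0.14 without mAb-DXd/IMQ replicate 2 and 0.09 without mAb-DXd/IMQ replicate 3. Bco2, on the opposite strand at a mean of 1.41 CPM, overlaps Il18.

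Il33 encodes interleukin-33, an alarmin released from damaged epithelial and stromal cells. It stood at 7.08, 31.4, 7.97 and 9.23 CPM in saline replicates 1 to 4. With mAb-DXd/IMQ, replicates 1 to 4 gave 12.7, 13.4, 19.3 and 12.3 CPM. Saline replicate 2 was above all other tumors, and the remaining saline tumors were below all mAb-DXd/IMQ tumors. The means were 13.9 ± 11.7 CPM and 14.4 ± 3.27 CPM (SD, n = 4 each), and the log2 fold change was 0.05 (SE 0.43). Without saline replicate 2 it was 0.83, and without saline replicate 1 it was -0.17. Of all tested genes, Il33 stood at percentile 86.2 for the spread of log2 CPM within groups, the highest of the 10 members.

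Il1rn, the antagonist, stood at 47.7, 22.5, 27.1 and 27.6 CPM in saline replicates 1 to 4. Its mAb-DXd/IMQ values were, in the order of replicates 1 to 4, 28.8, 26.7, 34.8 and 32.9 CPM. The mAb-DXd/IMQ values all lay inside the saline range, and saline replicate 1 was the highest tumor. The log2 fold change was -0.02 (SE 0.21), and it was 0.25 without saline replicate 1. Il1rn thus showed no difference larger than its spread between tumors, while Il1b, whose product it opposes at the receptor, was lower.

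The balance of agonist and antagonist RNA was taken as a ratio of levels per kilobase of gene length (RPKM), a scale on which genes can be compared. Il1b over Il1rn was 8.23, 14.2, 16.2 and 18.6 in saline replicates 1 to 4. In mAb-DXd/IMQ replicates 1 to 4 the ratio was 6.995, 5.67, 6.38 and 4.66. Saline replicate 1, with its high Il1rn, came close to the mAb-DXd/IMQ tumors but stayed above them. Il1b over Il1a was 19.1 ± 5.79 with saline and 9.69 ± 2.64 with mAb-DXd/IMQ (SD, n = 4 each), and these groups overlapped through saline replicate 2, at 10.7. Summed over the 5 ligand genes Il1a, Il1b, Il1rn, Il18 and Il33, Il1b made up 63.3% to 76.6% of the RPKM in saline tumors and 49.3% to 58.8% in mAb-DXd/IMQ tumors. These ratios carry the Il1b difference and add no separate evidence of it.

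**Figure D2:**
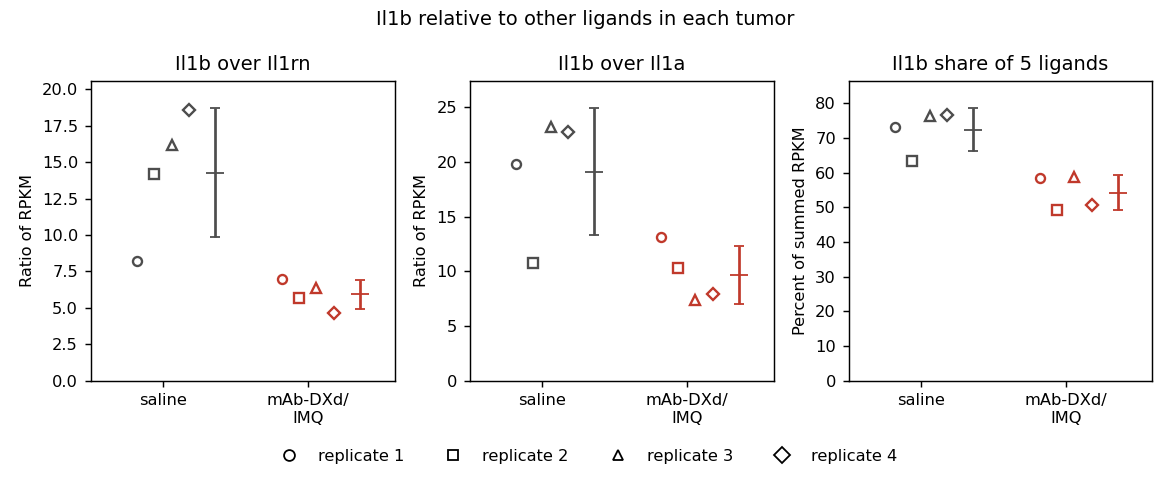
Il1b over Il1rn and Il1b over Il1a as ratios of RPKM, and Il1b as a percent of the summed RPKM of 5 ligand genes, for each tumor, with the mean and SD beside the points and the marker shape giving the replicate. The ratio to Il1rn is 8.23 or more in saline tumors and 6.995 or less in mAb-DXd/IMQ tumors, and the ratio to Il1a overlaps.

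Il1r1, the signalling receptor, ranged from 88.6 to 128 CPM with saline and from 79.4 to 99.98 CPM with mAb-DXd/IMQ. Saline replicate 2 was the highest tumor, and the log2 fold change was -0.25 (SE 0.14), or -0.15 without that tumor. Il1rap, the accessory chain, ranged from 24.3 to 40.4 CPM in saline tumors. In mAb-DXd/IMQ tumors Il1rap lay within 26.7 to 28.5 CPM, all inside the saline range. The Il1rap log2 fold change was -0.21 (SE 0.15), between -0.33 without saline replicate 2 and -0.09 without saline replicate 1.

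Il1r2, the decoy receptor, is found on neutrophils and on some macrophages. It ranged from 8.58 to 23.1 CPM with saline and from 10.8 to 20.2 CPM with mAb-DXd/IMQ, again inside the saline range. The Il1r2 log2 fold change was -0.10 (SE 0.28), and it was 0.11 without saline replicate 1 and -0.31 without saline replicate 2. The ratio of Il1r1 to Il1r2, as RPKM, was 2.34 ± 1.46 with saline and 1.88 ± 0.517 with mAb-DXd/IMQ (SD, n = 4 each). That ratio was highest in saline replicate 2, at 4.46, and lowest in saline replicate 1, at 1.15, so both extremes were saline tumors.

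Casp1, the protease gene, stood at 126, 130, 138 and 134 CPM in saline replicates 1 to 4. In mAb-DXd/IMQ replicates 1 to 4 it stood at 138, 125, 96.9 and 107 CPM. The saline tumors were close together, at percentile 4.92 of all tested genes for spread within that group, and mAb-DXd/IMQ replicates 2, 3 and 4 were below them, replicate 2 only slightly. The log2 fold change of Casp1 was -0.18 (SE 0.12), between -0.27 and -0.10 without mAb-DXd/IMQ replicates 1 and 3. Nlrp3, the sensor gene, ranged from 12.7 to 24.3 CPM with saline and from 11.6 to 15.7 CPM with mAb-DXd/IMQ, with saline replicate 2 the highest. The Nlrp3 log2 fold change was -0.37 (SE 0.21), and it was -0.15 without saline replicate 2.

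**Figure D3:**
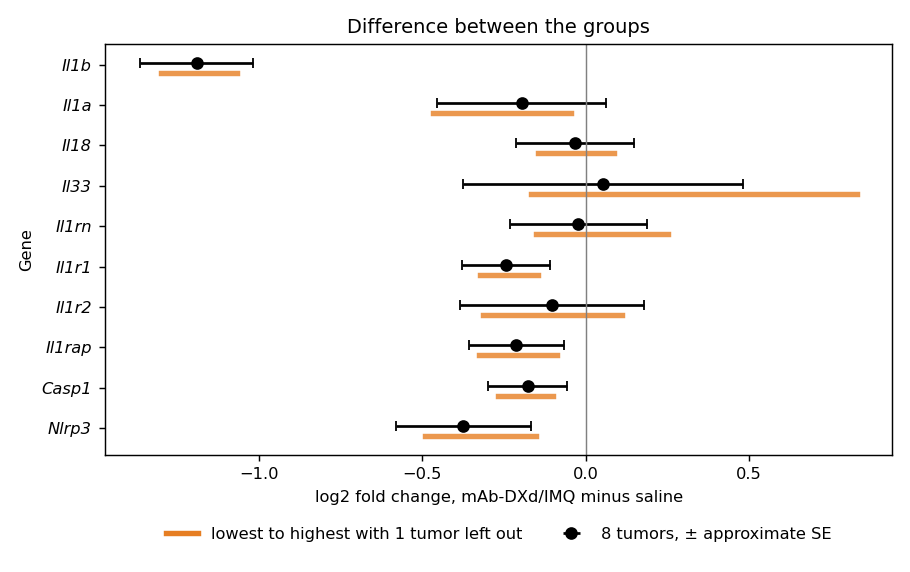
Log2 fold change of each member, mAb-DXd/IMQ minus saline (horizontal axis), as points with the approximate SE over 8 tumors, and as orange bars from the lowest to the highest value when 1 tumor was left out. Il1b lies at -1.19 and its bar from -1.30 to -1.07, while the bars of Il1rn, Il1r2, Il18 and Il33 cross 0.

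On the RPKM scale the order of the mean log2 levels over 8 tumors was Casp1, Il1b, Il1r1, Il18, Il1r2, Il1rn, Il33, Il1a, Nlrp3 and Il1rap. Casp1 was at 83.1 ± 9.91 RPKM and Il1rap at 2.64 ± 0.442 RPKM (SD, n = 8). Neighbours in this order were compared within tumors by an exact sign-flip permutation test (two-sided), with p adjusted over 9 pairs. The order came from the same 8 tumors, with both groups pooled, so these p-values do not test an order named in advance. Casp1 was above Il1b in 7 of 8 tumors, with a mean log2 difference of 0.75 and an adjusted p of 0.0352 by the exact test. Saline replicate 4 was the exception, with Il1b at 92.7 RPKM and Casp1 at 89.7 RPKM. In saline tumors alone, where Il1b was higher, the mean log2 difference was 0.25. Il1b was above Il1r1 in 8 of 8 tumors, by 1.69 on the log2 scale (exact test, adjusted p = 0.0352). The steps from Il18 to Il1r2, from Il1r2 to Il1rn and from Nlrp3 to Il1rap each held in 7 of 8 tumors, with mean log2 differences of 0.75, 0.52 and 0.47 and adjusted p of 0.0352, 0.0422 and 0.0352 by the exact test. The remaining neighbours, Il1r1 with Il18, Il1rn with Il33, Il33 with Il1a, and Il1a with Nlrp3, did not differ beyond their spread (exact test, adjusted p = 0.082, 0.422, 0.372 and 0.602). With 7 tumors, as when 1 is left out, the number of neighbouring pairs past an adjusted p of 0.05 was 0 for 7 of the 8 tumors left out and 3 without saline replicate 1, since the smallest p the exact test then allows is 0.0156. Il33 stood in place 9 with saline and 7 with mAb-DXd/IMQ, Nlrp3 in places 7 and 9, and the other 8 members kept their places. Il1b was in place 2 in both groups, and its mean level was 75.1 ± 14.7 RPKM with saline and 32.9 ± 6.36 RPKM with mAb-DXd/IMQ (SD, n = 4 each). The gene length behind RPKM is the one given in the table, and for all 10 members it equals the summed exons of all their transcripts in GENCODE M21, so a gene with a long, rarely used exon is placed too low.

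**Figure D4:**
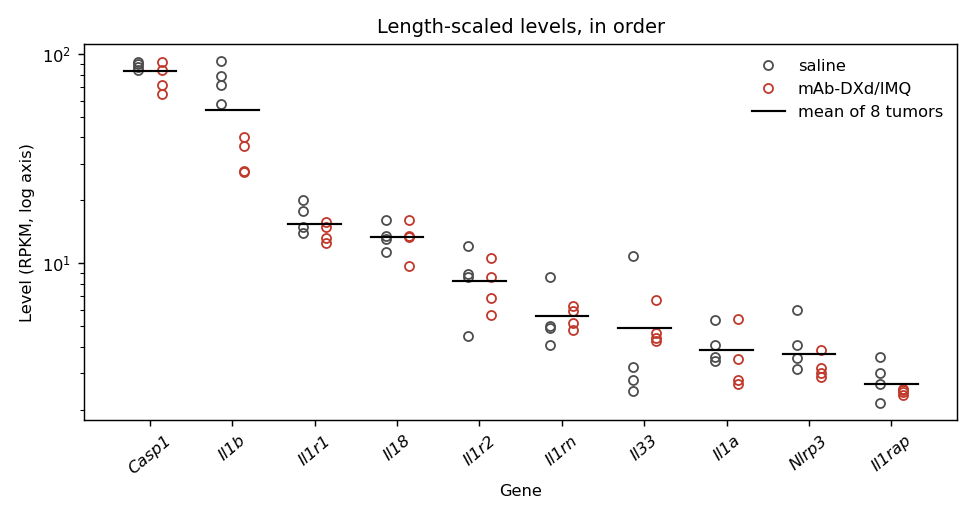
Levels in RPKM on a log axis for the 10 members in the order of their means, with each saline tumor in grey, each mAb-DXd/IMQ tumor in red and the mean of 8 tumors as a line. Casp1 and Il1b are at the top, at mean levels of 83.1 and 54.0 RPKM, and the saline and mAb-DXd/IMQ points of Il1b are apart.

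Some members differed between tumors of the same group together, and others did not. Saline replicate 2 was the highest saline tumor for Il1a, Il1r1, Il33 and Nlrp3 and the lowest for Il1b, Il1rn, Il1r2 and Il1rap. Saline replicate 1 was the highest for Il1rn, Il1r2 and Il1rap and the lowest for Il1r1, Il18, Il33, Casp1 and Nlrp3. In the mAb-DXd/IMQ group, replicate 3 was the highest tumor for 6 members and the lowest for 3. With group means removed, the highest Pearson r between members over 8 tumors was 0.95, for Il33 and Nlrp3, and the lowest was -0.93, for Il1r2 and Nlrp3. Other pairs were near 0, such as Il1b with Casp1 (r = -0.05), Il1a (r = 0.12) and Nlrp3 (r = -0.17). These are descriptions of the highest and lowest of all pairs of members, over tumors in which saline replicates 1 and 2 are often the extremes.

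Among 14645 other genes at 1 CPM or more, the genes whose levels followed those of Il1b most closely within groups were Gm42528 (r = 0.975), Clu (r = 0.971) and Ms4a4d (r = 0.962). For Il1a they were Arid3a (r = 0.996), Adpgk (r = 0.974) and Adamts7 (r = 0.973). For Il33 they were Rtl5 (r = 0.99), Tmem106a (r = 0.986) and Cd38 (r = 0.981). Each r is a Pearson coefficient of log2 CPM over 8 tumors with group means removed, the highest of many and given with no test. Of these 9 genes, 8 had a log2 fold change opposite in sign to that of their member, with Clu at 0.79, and Arid3a, at -0.08, had the sign of Il1a. For Rtl5, Tmem106a and Cd38, all lower, this rests on the Il33 value of 0.05 (SE 0.43). Without saline replicate 1 Il33 was at -0.17, and with that sign of Il33 they would not be counted as opposite.

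The pathway beyond the 10 members was described by 5 lists with 76 genes, of which 66 were tested. Past the thresholds were 2 of them, both lower in mAb-DXd/IMQ tumors, and none was higher (edgeR). At an unadjusted p under 0.05 there were 5 higher and 17 lower, DESeq2 gave 2 higher and 3 lower, and limma-voom gave 0 higher and 1 lower. Over all tested genes 9.13% were higher and 9.79% lower at an unadjusted p under 0.05, and DESeq2 and limma-voom put 4.25% and 0.94% past the thresholds. The median log2 fold change over the 66 genes was -0.13, with 44 lower and 22 higher, while 47.4% of all tested genes were lower. The number past the thresholds was 0 without saline replicate 3, saline replicate 4 or mAb-DXd/IMQ replicate 4, and 1 without saline replicate 1, mAb-DXd/IMQ replicate 2 or mAb-DXd/IMQ replicate 3.

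Saa3, an acute phase gene that interleukin-1 induces, stood at 27.5, 28.1, 37.6 and 29.8 CPM in saline replicates 1 to 4. In mAb-DXd/IMQ replicates 1 to 4 it stood at 13.8, 13.4, 18.1 and 13.2 CPM. Saa3 was lower in all 4 treated tumors than in any saline tumor, with a log2 fold change of -1.07 (SE 0.15, edgeR adjusted p = 0.0201). The Saa3 adjusted p was 0.0657, 0.0846 and 0.0694 without saline replicate 3, saline replicate 4 and mAb-DXd/IMQ replicate 4, and the log2 fold change was -0.96, -1.08 and -1.02. Over all 18 other settings the Saa3 adjusted p ranged from 9.26e-08 to 0.0846. Of the list of 19 tested target genes Saa3 was 1 of 13 that were lower, and the neutrophil chemokine genes Cxcl2, Cxcl1 and Cxcl5 were not past the thresholds (log2 fold changes -1.41, -1.27 and -1.06, edgeR adjusted p = 0.205, 0.167 and 0.26). Without saline replicate 1 Cxcl2 was at -0.73, and without saline replicate 4 Cxcl1 was at -0.57. Cxcl3, a further neutrophil chemokine gene of the list, went the other way, at 0.28 (edgeR adjusted p = 0.862). Ccl2, a monocyte chemokine gene, was 1 of 6 targets that were higher, with 17.1 ± 3.60 CPM with saline and 29.2 ± 7.24 CPM with mAb-DXd/IMQ (SD, n = 4 each), and its groups overlapped. Its log2 fold change was 0.77 (SE 0.20, edgeR adjusted p = 0.0748), and over the 18 other settings the adjusted p ranged from 0.0103 by DESeq2 to 0.271, with Ccl2 past the thresholds in 2. At an unadjusted p under 0.05 there were 2 higher and 6 lower targets, DESeq2 gave 1 higher and 1 lower, and limma-voom gave 1 lower. Cxcl1, Cxcl2 and Cxcl5 varied widely among saline tumors, and Cxcl1 ranged there from 20.2 to 132 CPM.

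Of 22 genes for signalling from the receptor to NF-kB and MAP kinases, inhibitors included, 18 were lower and 1 was past the thresholds. The median log2 fold change of the 22 genes was -0.23. At an unadjusted p under 0.05 there were 9 lower and 0 higher, DESeq2 gave 1 lower and limma-voom 0. The groups of 7 signalling genes, all lower, did not overlap, beside 7.1% of all tested genes that were lower in this way. The gene past the thresholds was Tab3, an adaptor of the kinase TAK1, with 40.1 ± 4.26 CPM with saline and 26.3 ± 3.31 CPM with mAb-DXd/IMQ (SD, n = 4 each). Its log2 fold change was -0.61 (SE 0.13, edgeR adjusted p = 0.0451), close to both limits, and it was no longer past them in 14 of 18 other settings, over which its adjusted p ranged from 0.00184 to 0.153. Leaving out any 1 of the 8 tumors ended the call, with log2 fold changes between -0.67 and -0.54. Of the others without overlap, Nfkb1, an NF-kB subunit gene, and Irak1, a kinase gene downstream of MYD88, were not past the thresholds (log2 fold changes -0.48 and -0.38, edgeR adjusted p = 0.0812 and 0.0692). Irak3, an inhibitor of the pathway, had a log2 fold change of -0.55 (edgeR adjusted p = 0.357) with overlapping groups, and -0.34 without saline replicate 2.

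Of 18 tested inflammasome genes beyond Casp1 and Nlrp3, 10 were lower and 8 higher, with a median log2 fold change of -0.05. None was past the thresholds (edgeR), 2 were higher and 1 lower at an unadjusted p under 0.05, DESeq2 gave 1 higher, and limma-voom gave 0. Aim2, a sensor of DNA in the cytosol, stood at 21.9 to 26.8 CPM with saline and 31.5 to 56.9 CPM with mAb-DXd/IMQ. The groups of Aim2 did not overlap, and its log2 fold change of 0.76 (SE 0.17) came with an edgeR adjusted p of 0.0536. It was past the thresholds in 3 of 18 other settings, with an adjusted p from 0.00331 by DESeq2 to 0.182, and at 0.0428 without mAb-DXd/IMQ replicate 1, where the log2 fold change was 0.87. Nek7, a partner of NLRP3, had a log2 fold change of -0.54 (edgeR adjusted p = 0.16) without overlap. Nlrc4, another sensor gene, and P2rx7, the ATP receptor gene that can trigger the NLRP3 inflammasome, had log2 fold changes of -0.74 and -0.54 with overlapping groups (edgeR adjusted p = 0.355 and 0.411). Without saline replicate 2 they were at -0.34 and -0.09.

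Of 7 tested ligand and receptor genes outside the members, 0 were past the thresholds by edgeR or limma-voom, and DESeq2 gave 1, Il1rl1. At an unadjusted p under 0.05, 1 was higher and 1 lower. Il1rl1, the receptor gene for interleukin-33, stood at 18.4, 4.27, 14.2 and 17.9 CPM in saline replicates 1 to 4. In mAb-DXd/IMQ tumors Il1rl1 ranged from 2.47 to 7.79 CPM, and saline replicate 2, the tumor with the highest Il33, lay in that range. The Il1rl1 log2 fold change was -1.58 (SE 0.46, edgeR adjusted p = 0.105), and without saline replicate 2 it was -1.87 with an adjusted p of 0.0448. Over the 18 other settings its adjusted p ranged from 0.00622 to 0.283. Sigirr, an inhibitory receptor gene, had a log2 fold change of 0.46, Il18r1 0.45, Il18rap -0.16 and Il36g -0.50 (edgeR adjusted p = 0.157, 0.481, 0.813 and 0.675). With 1 tumor left out, Il18r1 ranged from 0.20 without mAb-DXd/IMQ replicate 1 to 0.68 without saline replicate 3, and Il36g from -0.91 without mAb-DXd/IMQ replicate 2 to 0.07 without saline replicate 1. Il18rap ranged from -0.41 without mAb-DXd/IMQ replicate 3 to 0.13 without saline replicate 1. Il18bp, the soluble inhibitor of interleukin-18, had a log2 fold change of 0.03 (edgeR adjusted p = 0.955). It was 0.22 without saline replicate 1 and -0.06 without saline replicate 2. The RPKM ratio of Il18bp to Il18 was 1.03 ± 0.428 with saline and 1.06 ± 0.226 with mAb-DXd/IMQ (SD, n = 4 each). Saline replicate 1 had a ratio of 1.64, against 0.669 to 0.992 in the other saline tumors.

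Members of this family are made by neutrophils, macrophages, mast cells, keratinocytes and stroma, so marker genes of those cells were read in the same tumors. Of 75 tested marker genes in 12 lists, 4 were past the thresholds by edgeR, all lower in mAb-DXd/IMQ tumors, beside 1.06% of all tested genes. DESeq2 gave 2 higher and 13 lower, limma-voom 3 lower, and at an unadjusted p under 0.05 there were 4 higher and 22 lower. The 8 neutrophil markers summed to 243, 102, 107 and 142 CPM in saline replicates 1 to 4 and to 52.8, 61.7, 66.0 and 82.4 CPM in mAb-DXd/IMQ replicates 1 to 4. The sums did not overlap, as with Il1b, but saline replicate 1 was the highest for the neutrophil sum and saline replicate 4 for Il1b. S100a9 was the most abundant of the list, 6 of 7 tested neutrophil genes were lower, and 1, Csf3r, was past the thresholds (log2 fold change -0.80, edgeR adjusted p = 0.0402). DESeq2 gave 3 lower neutrophil genes and limma-voom 1, and 4 were lower at an unadjusted p under 0.05. The Csf3r call was lost when any 1 tumor other than mAb-DXd/IMQ replicate 1 was left out, with an adjusted p of 0.0587 to 0.134. Scaling by library size alone or by upper quartiles also ended it (edgeR adjusted p = 0.0601 and 0.0501). So did the replicate number as a block, without and with a gene length offset (edgeR adjusted p = 0.117 and 0.124). Over the 18 other settings the Csf3r log2 fold change lay between -0.87 and -0.68. Ly6g, a defining neutrophil marker, was too low to test, with 57 counts over 8 tumors. The part of neutrophil content in the Il1b difference was not tested.

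Monocyte and macrophage markers, led by C1qa, were lower for 9 of 10 genes with none past the thresholds by edgeR or limma-voom, 1 higher and 2 lower at an unadjusted p under 0.05, and 1 lower by DESeq2. The groups did not overlap for Ly6c2, a monocyte gene, which was higher, and Mrc1, a macrophage gene, which was lower. Their log2 fold changes were 0.79 and -1.37 (edgeR adjusted p = 0.184 and 0.0574). Over all tested genes 5.97% were higher and 7.1% lower without overlap. The sum of the list was 838, 2724, 1521 and 1784 CPM in saline replicates 1 to 4 and 1031 to 1540 CPM in mAb-DXd/IMQ tumors. Saline replicate 2, the tumor with the highest Il33, Nlrp3 and Il1r1, was also the highest for this sum, and saline replicate 1 was the lowest. Mast cell and basophil markers, led by Tpsb2, were lower for 6 of 7 genes, and Cpa3 was past the thresholds (log2 fold change -2.84, edgeR adjusted p = 0.0433). Mcpt8, a basophil gene of that list, went the other way with overlapping groups (log2 fold change 0.93, edgeR adjusted p = 0.235). DESeq2 gave 4 lower genes of that list and limma-voom 0, with 1 higher and 6 lower at an unadjusted p under 0.05. The Cpa3 call was lost when any 1 tumor other than saline replicate 2 was left out, with an adjusted p of 0.0602 to 0.143. A replicate block also ended it, without and with a gene length offset (edgeR adjusted p = 0.138 and 0.142). The mast cell and basophil sum was 148, 30.5, 112 and 146 CPM in saline replicates 1 to 4 and 23.1 to 42.1 CPM in mAb-DXd/IMQ tumors, and Il1rl1 followed the same order in saline tumors. In mAb-DXd/IMQ tumors it did not, as replicate 4 had the second highest sum and the lowest Il1rl1. Lymphocyte markers, led by Cd8a, summed to 62.4 ± 9.92 CPM with saline and 31.6 ± 5.17 CPM with mAb-DXd/IMQ (SD, n = 4 each), with Cd4 and Cd8a past the thresholds (log2 fold changes -1.91 and -1.22, edgeR adjusted p = 0.0201 for both). The lymphocyte sums did not overlap either, at 47.8 or more and 35.1 or less. Of 6 tested lymphocyte genes, 5 were lower at an unadjusted p under 0.05, 5 by DESeq2 and 2 by limma-voom. Without saline replicate 3, saline replicate 4 or mAb-DXd/IMQ replicate 4 the edgeR adjusted p of both Cd4 and Cd8a was 0.0657, 0.0846 and 0.0694. With the replicate number as a block it was 0.0695 for Cd4 and 0.0815 for Cd8a. With the block and a gene length offset it was 0.0748 and 0.0847, so these settings ended both calls too. The part of macrophages, mast cells and lymphocytes in the members' values was not tested.

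Of the remaining lists, dendritic cell (led by Itgax), epidermis (Krt14), fibroblast (Col1a1), endothelium (Pecam1), simple epithelium (Krt18), adipocyte (Fabp4), skeletal muscle (Acta1) and breast receptor (Erbb2) markers had 0 genes past the thresholds by edgeR or limma-voom, and DESeq2 gave 1 higher in the fibroblast and 1 higher in the endothelium list. At an unadjusted p under 0.05, the dendritic list had 3 lower, fibroblast 1 higher and 1 lower, endothelium 1 higher, breast receptors 1 lower and the others 0. Epidermis markers summed to 34.4 to 220 CPM with saline and 105 to 548 CPM with mAb-DXd/IMQ, with mAb-DXd/IMQ replicate 2 the highest. Krt14 made up 78.2% of the epidermis sum over all tumors, and other genes of the list did not follow it. In mAb-DXd/IMQ replicates 1 and 3 Krt14 was at 208 and 216 CPM, and Krt5 at 0.206 and 1.05 CPM. Krt1 and Krtdap were above 1 CPM only in saline replicate 1 (7.01 and 8.76 CPM) and mAb-DXd/IMQ replicate 2 (19.6 and 21.3 CPM). The part of epidermis in the members' values was not tested. Endothelial markers summed to 142 ± 46.9 CPM with saline and 181 ± 15.4 CPM with mAb-DXd/IMQ (SD, n = 4 each), and 6 of 6 were higher. Tested genes were also all higher for epidermis (6 of 6) and simple epithelium (5 of 5), and all lower for adipocytes (4 of 4). The dendritic, fibroblast, skeletal muscle and breast receptor lists held genes of both directions. Lep, an adipocyte marker, was too low to test, with 16 counts over 8 tumors. Krt8 and Krt18, epithelial keratin genes of the labelled tumor type, were present in all tumors, and Esr1 and Erbb2 were also read, at means of 19.1 and 102 CPM in saline tumors, in tissue labelled triple-negative, while Pgr was at 0.367 CPM.

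**Figure D5:**
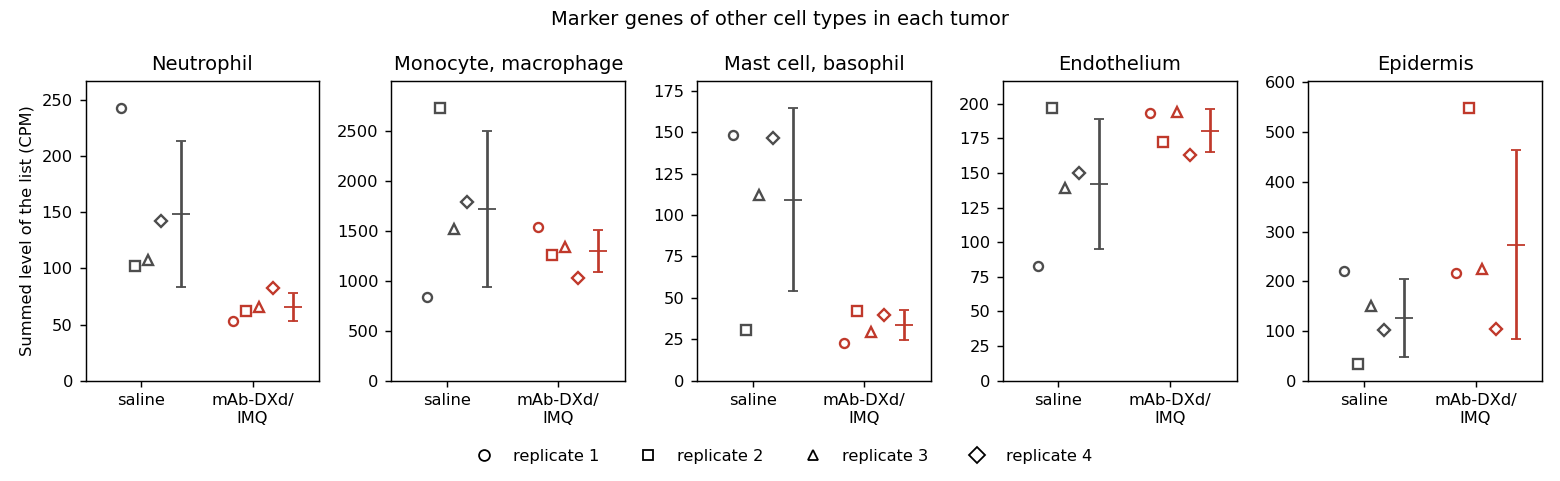
Summed CPM of marker lists for 5 other cell types (vertical axes, from 0) in each saline (grey) and mAb-DXd/IMQ (red) tumor, with the mean and SD beside the points and the marker shape giving the replicate. The neutrophil sums are 102 CPM or more in saline tumors and 82.4 CPM or less in mAb-DXd/IMQ tumors, and the other 4 panels overlap.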

How the data were processed

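The table deposited by the authors holds raw counts of reads on each gene in each tumor, not normalized, and a gene length. The submitters' processing notes name HISAT2, HISAT, TopHat2 and mm39, but 98.3% of the 54409 genes shared with GENCODE M21 had its GRCm38 start and end, and all 10 members did. The counting program and its use of strand are not given in the sources used here. Libraries were made and sequenced by a service company from poly-T selected RNA.

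Genes were kept by filterByExpr (minimum count 10, minimum total 15), scaled with TMM factors (0.939 to 1.07) and fitted with edgeR's quasi-likelihood test with Benjamini-Hochberg adjustment over 18511 genes. CPM used TMM-scaled library sizes, RPKM divided CPM by the deposited length, and log2 CPM used a prior count of 2 (0.5 for the order of levels). SEs were approximated from the F statistic. Versions were edgeR 4.0.16 and DESeq2 1.42.0 with limma 3.58.1 in R 4.3.3, and matplotlib 3.10.9 in Python 3.11.15.

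The members and lists were chosen with earlier results of these data known. Named genes were the 10 members, in each pathway list every gene past the thresholds and otherwise up to 4 with the largest absolute log2 fold change at a mean of 1 CPM or more, in each marker list the most abundant gene and any past the thresholds, and the 3 genes most like Il1a, Il1b and Il33. Other genes named were chosen after their values were seen. Labels number the tumors within a group without naming the animal, so p-values measure the spread between these samples. No 2 libraries agreed within sampling noise, and the labels give no sequencing batch. Alternatives covered scaling, filters, DESeq2, limma-voom, a replicate block, a gene length offset and leaving out each tumor.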

Additional observations from a re-analysis of the deposited data

Results flagged for a closer look

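In each group of 4 tumors, a tumor was singled out where the gap between it and the next value took up most of the range of its group, by Dixon's criterion. Chance alone singles out about 1 in 20 groups, and 6 of 92 groups were singled out here, 2 of them among the 20 groups of member values. Il33 was 31.4 CPM in saline replicate 2, far above the other saline tumors at 7.08 to 9.23 CPM. Il33 was also high in mAb-DXd/IMQ replicate 3, at 19.3 CPM, against 12.3 to 13.4 CPM in the others of its group. The same mAb-DXd/IMQ tumor was far above its group for the dendritic cell marker sum, at 152 CPM against 85.3 to 89.2 CPM, for Il18rap, at 90.2 CPM against 50.2 to 54.6 CPM, and for Saa3, at 18.1 CPM against 13.2 to 13.8 CPM. Nfkb1 was 283 CPM in saline replicate 1, against 197 to 211 CPM in the other saline tumors. In mAb-DXd/IMQ replicate 3 the dendritic sum was high through Itgax, at 128 CPM against 64.2 to 66.8 CPM in the others of its group. Itgax made up 73.4% of the dendritic sum over all tumors. It was the 1 of 7 dendritic genes with a higher mean in mAb-DXd/IMQ tumors. The causes were not tested.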

How the results depend on the processing

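The Il1b log2 fold change was between -1.30 and -1.07 in 18 other settings. The signs of Il1a, Il1r1, Il1rap, Casp1 and Nlrp3 were the same in 18 of 18, that of Il1r2 in 16, Il18 in 15, Il33 in 13 and Il1rn in 10. With 1 tumor left out, Il33 lay between -0.17 and 0.83. The number of genes past the thresholds was 358 with no filter on low counts, 787 with DESeq2 and 122 with a gene length offset, against 197, and from 10 to 203 with 1 tumor left out. Log2 fold changes were lower for longer genes (Spearman's rho -0.21 across genes, which are not independent), and with the offset Il1b was at -1.29. Pathway genes past the thresholds numbered 1 by library size alone, upper-quartile factors, limma-voom and the length offset, 4 with no filter, 5 with DESeq2, and from 0 to 2 with 1 tumor left out, against 2. The count of differing neighbours in the order of levels was 0 to 3 with 1 tumor left out, against 5, for the smallest p of the exact test rises with fewer tumors. The 6 named pathway and marker genes past the thresholds kept their call in 60 of 108 comparisons with another setting and lost it in 48, and the other 17 gained one in 7 of 306.

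With the replicate number as a block, 14 genes were past the thresholds, 1 of them a pathway gene, and Il1b was at -1.19. With the block and the length offset together 14 were past, again with 1 pathway gene, and Il1b was at -1.30. The numbers do not pair the tumors, since same-numbered deviations correlated at -0.17, -0.05, 0.08 and -0.07, and replicate 3 alone correlated best with its own number. The cause of the changes with a replicate block was not tested.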
